A study of Homo sapiens with 28 samples.

Results

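Transcripts of the IL-6 cytokine family were followed in xenograft tumours of human renal cell carcinoma that had grown on sorafenib or sunitinib. The members were given as a list of 9 genes: the cytokines IL6, LIF, IL11 and CLCF1, the receptor chains IL6R, IL6ST and OSMR, the transcription factor STAT3, and SOCS3, an inhibitor of the pathway. Of these, 8 had at least 1 probe set annotated with that symbol alone, 25 probe sets in all, out of 19775 genes with such a probe set. CLCF1 had no entry in the annotation used and was not analysed here. All 8 genes passed the filter on dim probe sets, IL11 on 4 arrays, the fewest that the filter allows.

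Cytokines of the IL-6 family signal through receptor complexes that share the chain gp130, which IL6ST encodes. IL-6 and IL-11 first bind a receptor chain of their own and then gp130, LIF pairs gp130 with the LIF receptor, and oncostatin M pairs it with the chain encoded by OSMR or with the LIF receptor. Ligand binding activates JAK kinases bound to the receptors, which phosphorylate STAT3, and STAT3 induces SOCS3, which in turn inhibits signalling at gp130. In renal cell carcinoma IL-6 is a known product of the tumour cells themselves.

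The groups were 5 sorafenib-resistant 786-O tumours with 5 untreated 786-O tumours of the same arm, 4 sunitinib-resistant 786-O tumours with 5 untreated 786-O tumours of that arm, and 5 sorafenib-resistant A498 tumours with 4 untreated A498 tumours. Resistant is the labels' word for tumours that had been treated and had grown on. 786-O and A498 are established renal carcinoma lines without functional VHL, each injected under the skin of female athymic nude/beige mice aged 6 to 8 weeks. These hosts lack T cells and keep other stromal and myeloid cells of their own. Sorafenib (80 mg/kg) or sunitinib (53.6 mg/kg), both inhibitors of VEGF and PDGF receptors, was given by gavage 6 days a week once a tumour measured 12 mm, and tumours were taken at that size before treatment or at 20 mm. The labels state neither the size of each untreated tumour nor whether every tumour had a mouse of its own, so time on study, size and treatment cannot be told apart, and the tests speak only of the variation among the tumours sampled.

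Values are probe set signals of a human 1-colour Affymetrix array, which mouse RNA can also bind in part. The arrays had equal trimmed means and medians between 79.7 and 99.4, and tumours of 1 group correlated with r between 0.949 and 0.971. The 3-prime minus 5-prime differences of GAPDH and ACTB, a reading of RNA quality, did not pass an exact two-sided permutation test in any arm (p = 0.238 to 0.984, where 0.00794 is the smallest possible). All 8 renal carcinoma markers with a probe set passed the filter, among them PAX8 and the keratin KRT18. For an array, the number of tumours limits the precision. Differences are in log2(signal + 16), resistant minus untreated or A498 minus 786-O, ± standard error, and a gene was called at a limma p under 0.05 after Benjamini-Hochberg adjustment over 13808 genes. This scale understates changes of dim genes, and signals of different probe sets were not set against each other.

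The promoters of IL6, OSMR and SOCS3 are shown because these 3 members were called in sorafenib-resistant 786-O tumours. The sequences are RefSeq's on GRCh38.p14, from 250 bases before to 50 bases after the gene start, at chr7:22726950-22727249 (plus strand) for IL6, chr5:38845762-38846061 (plus strand) for OSMR and chr17:78360876-78361175 (minus strand) for SOCS3. Capitals mark matches to any of the motifs searched.
IL6: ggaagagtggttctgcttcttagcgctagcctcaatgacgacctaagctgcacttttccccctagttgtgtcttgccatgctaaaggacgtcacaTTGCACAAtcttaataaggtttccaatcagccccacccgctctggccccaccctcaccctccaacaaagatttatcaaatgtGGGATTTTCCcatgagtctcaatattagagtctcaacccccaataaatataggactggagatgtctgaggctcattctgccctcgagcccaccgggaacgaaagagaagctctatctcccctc
OSMR: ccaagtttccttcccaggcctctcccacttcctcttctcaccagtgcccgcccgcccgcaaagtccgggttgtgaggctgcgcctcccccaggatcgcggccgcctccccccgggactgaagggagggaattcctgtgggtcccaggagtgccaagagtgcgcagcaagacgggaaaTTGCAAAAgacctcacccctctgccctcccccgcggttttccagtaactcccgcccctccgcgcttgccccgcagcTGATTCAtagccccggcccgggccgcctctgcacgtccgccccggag
SOCS3: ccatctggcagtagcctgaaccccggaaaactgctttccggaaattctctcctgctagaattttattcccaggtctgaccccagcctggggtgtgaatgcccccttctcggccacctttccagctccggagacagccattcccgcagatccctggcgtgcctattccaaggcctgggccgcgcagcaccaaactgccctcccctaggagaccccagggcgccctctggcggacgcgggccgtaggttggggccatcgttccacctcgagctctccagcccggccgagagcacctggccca
Both strands were searched for the NF-kB consensus and for the letters TTGCNNAA for C/EBP, TGANTCA for AP-1 and TTCNNNGAA for STAT. In the IL6 promoter the NF-kB match GGGATTTTCC began at base -73 and the C/EBP letters at -155 from the gene start. In the OSMR promoter the C/EBP letters began at base -73, and the AP-1 letters lay after the gene start, at base 4. The SOCS3 window held none of the 4 motifs, nor did that of STAT3, while IL6ST had an NF-kB match at -53, IL11 the AP-1 letters at -96 and IL6R at 38. No matches overlapped in the printed windows. Of 35116 promoters of this length, 14% held an NF-kB match, 10.5% the C/EBP letters, 7.71% the AP-1 letters and 7.66% the STAT letters. A match describes the letters in these windows and no more.

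**Figure D1:**
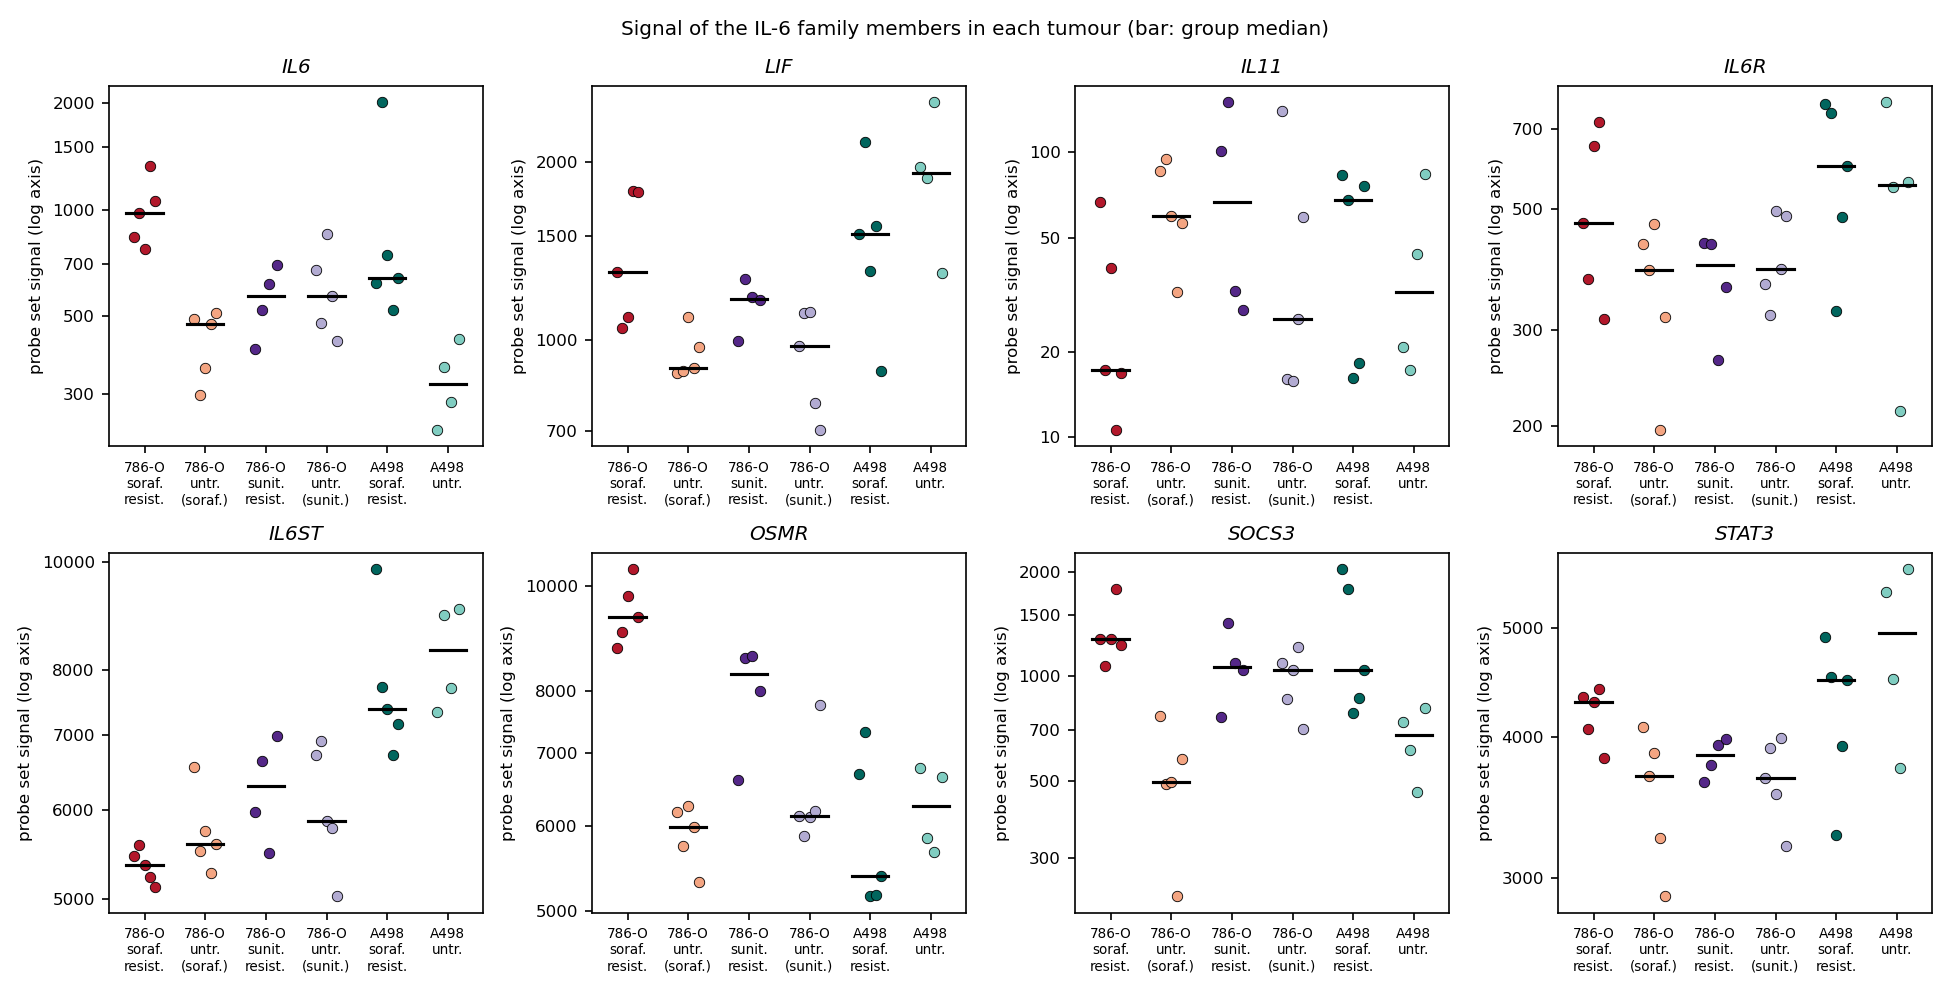
Signal of the brightest probe set of each member in each of the 28 tumours, on a log axis that differs between panels; each point is a tumour, each bar a group median, and resistant tumours stand to the left of their untreated tumours. IL6 lies between 774 and 1326 in sorafenib-resistant 786-O tumours, above all their untreated tumours (299 to 508), and OSMR shows the same separation.

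In the sorafenib-resistant 786-O tumours, IL6, OSMR and SOCS3 were higher than in untreated tumours of the same arm, by 2.29-fold, 1.60-fold and 2.67-fold. Thus 3 of 8 members were called, all of them higher and all without overlap between the groups. Among all genes 15.2% were called in this comparison, 5.97% as higher and 9.18% as lower, and 12.5% did not overlap between the groups. The share of calls that were higher was 39.4% as deposited and 62.2% with each array centred on its median, and these 3 members were called higher under both. The median difference of the 8 members was 0.50, against -0.05 for all genes tested.

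IL6, the cytokine that gives the family its name, had signals of 834, 975, 774, 1326 and 1054 in sorafenib-resistant 786-O tumours, against 490, 299, 355, 474 and 508 in untreated tumours. Every resistant tumour lay above every untreated one. The difference was 1.20 ± 0.27 (limma adjusted p = 0.00343). Within groups, IL6 correlated with the GAPDH 3-prime minus 5-prime difference over the 19 786-O arrays (r = 0.59), as did LIF (r = 0.56). Of 13 other settings, leaving out single arrays aside, 12 kept the IL6 call. LIF, a cytokine that acts through gp130 and the LIF receptor, had signals of 1304, 1046, 1093, 1791 and 1779 in the resistant tumours, against 877, 884, 1094, 895 and 974 in the untreated ones. The groups overlapped at the bright end of the untreated tumours, and 2 resistant tumours stood well above the rest. The difference of LIF was 0.53 ± 0.20 (limma adjusted p = 0.0751), which did not pass. It passed in 1 of 10 fits with 1 array left out, that without resistant replicate 2 (0.62, limma adjusted p = 0.0478). Over the 10 fits it ran from 0.43 to 0.62 (limma adjusted p up to 0.196).

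IL11, a cytokine with its own receptor chain and gp130, was dim throughout, between 10.6 and 149.9 over all 28 tumours. Its brighter probe set gave 67.2, 17.3, 39.2, 10.6 and 16.8 in sorafenib-resistant 786-O tumours, against 85.8, 94.7, 60.0, 32.3 and 56.5 in untreated ones (difference -0.90 ± 0.47, limma adjusted p = 0.212). Its other probe set, which lay below the filter, ran the opposite way (0.96 ± 0.28), so that no direction is given for IL11.

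OSMR, the oncostatin M receptor chain, had signals of 8759, 9064, 9777, 10367 and 9353 in sorafenib-resistant 786-O tumours, against 6176, 5744, 6259, 5979 and 5321 in untreated tumours. The resistant tumours formed a narrow band above all untreated ones, and no other member had so small a p in this comparison. The difference was 0.68 ± 0.10 (limma adjusted p = 5.68e-05). All 3 OSMR probe sets were called, with differences of 0.68, 0.69 and 0.78, in a fit of all probe sets in which 12.0% were called.

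IL6R, the receptor chain specific to IL-6, gave 472, 372, 653, 724 and 314 in the resistant tumours, against 431, 387, 469, 196 and 316 in the untreated ones. The groups overlapped over most of their range, and the difference of 0.47 ± 0.30 did not pass (limma adjusted p = 0.319). The second IL6R probe set above the filter gave 0.78 ± 0.31 and did not pass either. IL6ST, which encodes gp130, lay between 5117 and 5585 in the resistant tumours and between 5274 and 6557 in the untreated ones. Its difference was -0.10 ± 0.10, with a 95% confidence interval from -0.31 to 0.11.

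SOCS3, the feedback inhibitor, had signals of 1284, 1069, 1283, 1788 and 1228 in sorafenib-resistant 786-O tumours, against 768, 490, 496, 233 and 577 in untreated tumours. The groups did not overlap, and untreated replicate 4 was the lowest of all 28 tumours. The difference was 1.42 ± 0.27 (limma adjusted p = 6.93e-04), the largest of the 8 members. It rests on the brightest of 4 SOCS3 probe sets, with a mean signal of 986. The other 3 had mean signals of 39.6 to 153, gave 0.74 ± 0.39, -0.32 ± 0.21 and -0.93 ± 0.34, and were not called. With the mean of all SOCS3 probe sets the difference was 0.23 (limma adjusted p = 0.507). STAT3, the transcription factor downstream of gp130, gave 4343, 4071, 4300, 4417 and 3831 in the resistant tumours, against 4086, 3693, 3873, 3253 and 2887 in the untreated ones. Of the resistant tumours 3 lay above all untreated ones and the others within their range, and the difference of 0.24 ± 0.12 did not pass (limma adjusted p = 0.160). It passed with arrays centred on the median (0.33, limma adjusted p = 0.0447), as did LIF (0.62, limma adjusted p = 0.0294). The bright STAT3 probe sets did not move alike. One lay at 1717.9 to 1929.1 in the resistant tumours, against 1436.5 to 1601.7 in the untreated ones, without overlap. Among all genes, each read by its brightest probe set, 12.5% did not overlap, and no such share was taken over all probe sets. Another gave -0.0036 ± 0.17 and was not called.

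**Figure D2:**
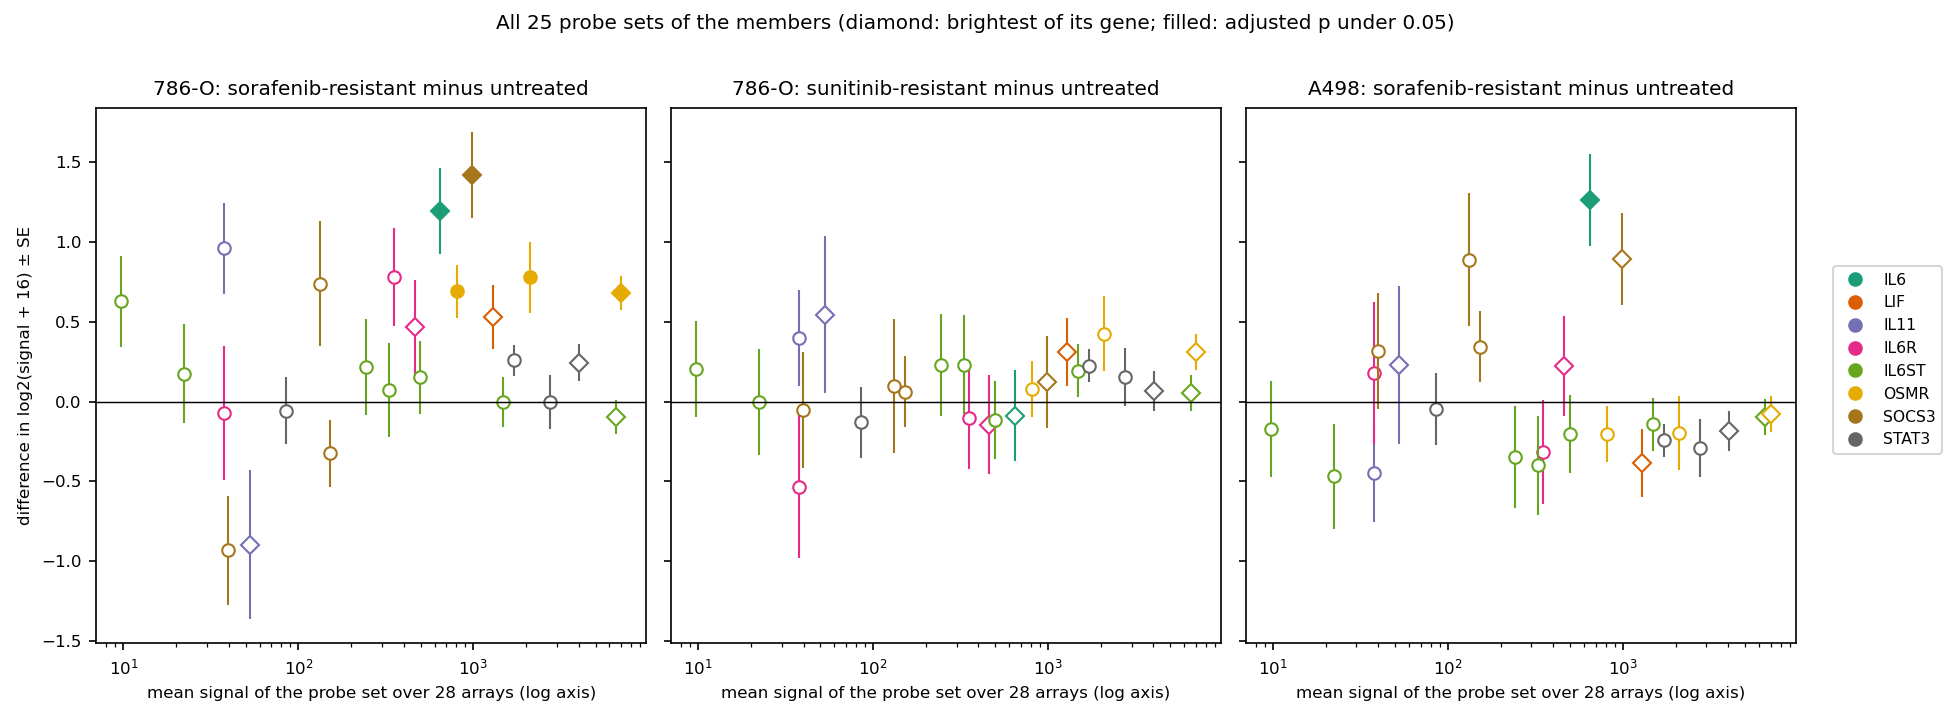
Difference in log2(signal + 16) ± SE, resistant minus untreated, of all 25 probe sets of the members against their mean signal over 28 arrays (log axis), 1 panel for each arm; diamonds mark the brightest probe set of a gene and filled symbols an adjusted p under 0.05 above the filter. The 3 OSMR probe sets lie together in the left panel, while the 4 SOCS3 probe sets span 1.42 to -0.93.

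Markers of other cell types were read in the same comparison. Of 14 fibroblast and pericyte markers 12 passed the filter, and 6 were called lower and 0 higher, where 9.18% and 5.97% of all genes were. COL3A1 gave -1.93 ± 0.30 and COL1A2 -1.83 ± 0.27. The summed signal of the 14 markers was 3420 to 5762 in sorafenib-resistant 786-O tumours, against 8501 to 11876 in untreated ones. Of 12 macrophage and myeloid markers with a probe set, 6 lay below the filter, PTPRC and CD14 among them. Of the 6 tested 1 was called, as lower, and their median difference was -0.02, against -0.05 for all genes. The sum of the 12 ran from 650 to 896 in the resistant tumours, against 720 to 1263 in the untreated ones, with overlap. Of 12 endothelial markers 9 lay below the filter, CDH5 and VWF among them. Of the 3 tested 1 was called, as lower, and their median difference was -0.04. The sum of the 12 ran from 375 to 635 in the resistant tumours, against 568 to 767 in the untreated ones, with overlap. Both sums thus rest in part on probe sets below the filter. Of 5 skeletal muscle markers tested 1 was called, DES, as lower (-0.84 ± 0.27), and of 2 adipose markers tested 0 were called. Of the 8 renal carcinoma markers 3 were called higher, led by EPAS1 (0.90 ± 0.11), and 1 lower, PAX2 (-0.86 ± 0.29). The array is human and the hosts are mice, and which cells gave the signals of these markers was not tested. Between untreated lines 1 of the 12 fibroblast and pericyte markers tested was called higher in A498, COL1A1 (4.99 ± 0.36). A further 4 were lower, among them COL3A1 (-2.30 ± 0.32), where 58.0% of all genes were called. In tumour RNA fewer cells of a type and less RNA per cell cannot be told apart either. The part of stromal and myeloid cells in the results on the members was not tested. Without the 2 arrays of highest ACTB difference, 1 in each group, 3 members were again called, of 1233 genes called in place of 2092.

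Between the untreated 786-O tumours of the sorafenib arm and those of the sunitinib arm, 0 of 8 members were called, where 0.275% of all genes were. SOCS3 in untreated tumours lay between 233 and 768 in the sorafenib arm and between 705 and 1218 in the sunitinib arm, with overlap in 1 tumour of each. The difference of sorafenib arm minus sunitinib arm was -0.98 (95% confidence interval -1.54 to -0.43, limma adjusted p = 0.116). For IL6 it was -0.47 (interval -1.03 to 0.09) and for OSMR -0.12 (interval -0.33 to 0.10). Set against the untreated tumours of the sunitinib arm, an alternative chosen after the data were seen, sorafenib-resistant tumours gave 0.44 for SOCS3 (limma adjusted p = 0.305) and 0.73 for IL6 (limma adjusted p = 0.0720). Within the arm these differences were 1.42 and 1.20, so their size depended on which untreated tumours were used. In that fit against the sunitinib arm OSMR was the 1 member of 8 called. Over 13 other settings, that fit included, 1591 to 2606 genes were called, against 2092 of 13808 within the arm.

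**Figure D3:**
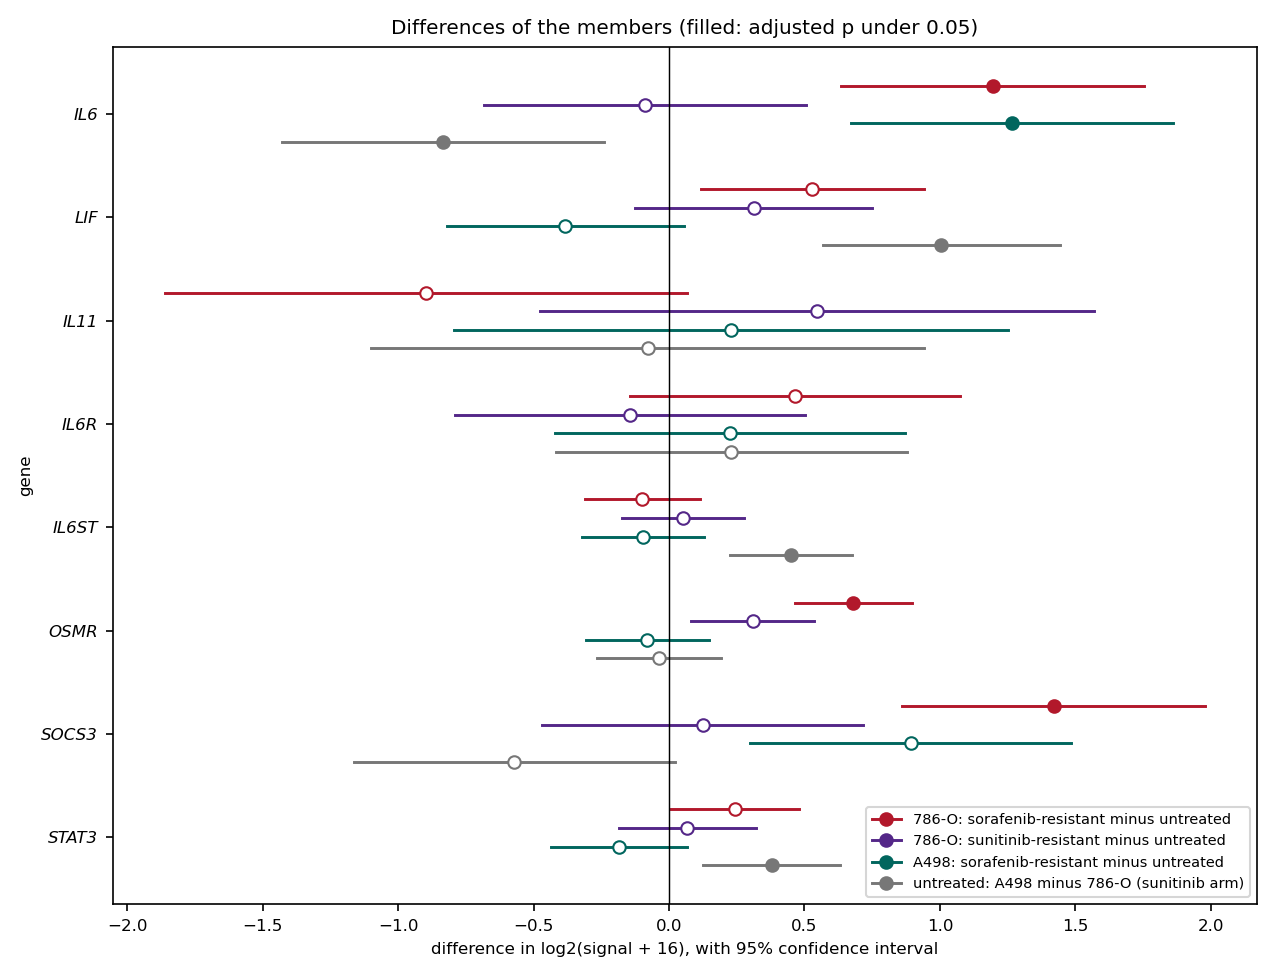
Difference in log2(signal + 16) of each member, with its 95% confidence interval, in the 3 comparisons of resistant minus untreated tumours and in A498 minus 786-O untreated tumours; filled points have an adjusted p under 0.05. IL6 lies at 1.20 and 1.27 under sorafenib in 786-O and A498 and at -0.09 under sunitinib, while OSMR is called in 786-O under sorafenib only.

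In the sunitinib-resistant 786-O tumours, 0 of 8 members were called, where 5.06% of all genes were, 2.22% as higher and 2.84% as lower. The share of calls that were higher was 43.8% as deposited and 58.2% with arrays centred on the median. At an unadjusted p under 0.05, 1 of 8 members passed, OSMR, as did 2584 of all 13808 genes. OSMR had signals of 6610, 8567, 8611 and 7992 in sunitinib-resistant tumours, against 6124, 5863, 6112, 6186 and 7765 in untreated tumours. Resistant replicate 1 lay below untreated replicate 5, and otherwise the resistant tumours were above the untreated ones. The difference was 0.31 ± 0.11 (limma adjusted p = 0.112). Without resistant replicate 1 it was 0.39 (limma adjusted p = 0.0476), and without untreated replicate 5 it was 0.38 (limma adjusted p = 0.0463). These were the 2 of 9 fits with 1 array left out in which it passed. Over the 9 fits it ran from 0.27 to 0.39 (limma adjusted p up to 0.292).

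IL6 had signals of 401, 521, 614 and 696 in sunitinib-resistant 786-O tumours, against 675, 478, 853, 569 and 425 in untreated tumours of that arm. The groups overlapped over nearly all of their range. The difference was -0.09 ± 0.29, with a 95% confidence interval from -0.68 to 0.51. SOCS3 had signals of 763, 1420, 1092 and 1040 in the resistant tumours, against 1091, 859, 1040, 1218 and 705 in the untreated ones, again with broad overlap. Its difference was 0.12 ± 0.29, with an interval from -0.47 to 0.72. LIF gave 0.31 ± 0.21, IL11 0.55 ± 0.50, IL6R -0.14 ± 0.31, IL6ST 0.05 ± 0.11 and STAT3 0.07 ± 0.12, none of them called. Sunitinib-resistant tumours were also set against the untreated tumours of the sorafenib arm, an alternative chosen after the data were seen. They gave 1.11 for SOCS3 (limma adjusted p = 0.0148) and 0.42 for OSMR (limma adjusted p = 0.0153). In that fit 1511 of 13808 genes were called, against 698 within the arm. Between the untreated arms SOCS3 gave -0.98 (sorafenib arm minus sunitinib arm, limma adjusted p = 0.116), which was not called. The 1.11 takes in this difference between arms, and that fit cannot tell it apart from a difference with sunitinib.

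Whether the sorafenib and sunitinib differences in 786-O were unequal was tested as the sorafenib minus the sunitinib difference. It called 0 of 8 members and 0.949% of all genes. For SOCS3 it was 1.30 ± 0.40 (limma adjusted p = 0.114), for IL6 1.28 ± 0.40 (limma adjusted p = 0.116) and for OSMR 0.37 ± 0.15 (limma adjusted p = 0.252). Unadjusted p-values were under 0.05 for these 3 and for IL11 (-1.44 ± 0.68), 4 of 8 members, and for 1987 of all 13808 genes. Missing the adjusted threshold does not show that the drugs acted alike on them. Resistant tumours set directly against each other, sorafenib minus sunitinib, gave 0.82 for IL6 (interval 0.22 to 1.41, limma adjusted p = 0.0860), 0.26 for OSMR (interval 0.03 to 0.49) and 0.31 for SOCS3 (interval -0.28 to 0.90), with 6.71% of genes called. The doses of the drugs differ, and titles of the sorafenib arm of 786-O carry another prefix than those of the other arms, whose meaning the labels do not give.

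In A498 tumours that had grown on sorafenib, IL6 was higher by 2.41-fold and was the 1 member of 8 called, where 6.34% of all genes were called, 2.93% as higher and 3.40% as lower. The share of calls that were higher was 46.3% as deposited and 17.7% with arrays centred on the median, and IL6 was called higher under both. The members' median difference was 0.07, against 0.03 for all genes. IL6 had signals of 618, 2013, 745, 519 and 640 in sorafenib-resistant A498 tumours, against 237, 359, 284 and 430 in untreated tumours. The groups did not overlap, as was so for 9.14% of all genes, and resistant replicate 2 stood far above the other tumours. The difference was 1.27 ± 0.29 (limma adjusted p = 0.00898). Without resistant replicate 2 it was 0.93 (limma adjusted p = 0.0161). With only the A498 arrays in the fit it did not pass (limma adjusted p = 0.102). Within groups, IL6 correlated with the GAPDH 3-prime minus 5-prime difference with r of 0.83 over the 9 A498 arrays, which share their line and host, and with that difference as a covariate the IL6 difference was 1.11 (limma adjusted p = 0.00926).

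SOCS3 had signals of 2039, 1785, 783, 867 and 1047 in sorafenib-resistant A498 tumours, against 741, 615, 464 and 814 in untreated tumours. Resistant replicates 1 and 2 were far above the rest, and resistant replicate 3 lay below untreated replicate 4. The difference was 0.89 ± 0.29 (limma adjusted p = 0.0646), which did not pass. It passed in 1 of 9 fits with 1 array left out, that without resistant replicate 3 (1.05, limma adjusted p = 0.0424). Over the 9 fits it ran from 0.71 to 1.05 (limma adjusted p up to 0.166). OSMR had signals of 6698, 7322, 5160, 5179 and 5384 in the resistant tumours, against 6786, 5841, 5668 and 6657 in the untreated ones. These groups overlapped, and 3 resistant tumours were below all untreated ones. The difference of OSMR was -0.08 ± 0.11, with a 95% confidence interval from -0.31 to 0.15. LIF gave 1511, 2167, 1307, 1560 and 884 in the resistant tumours, against 1964, 1877, 2526 and 1300 in the untreated ones (-0.38 ± 0.21, limma adjusted p = 0.313). IL11 (0.23 ± 0.50), IL6R (0.23 ± 0.31), IL6ST (-0.10 ± 0.11) and STAT3 (-0.19 ± 0.12) were not called. Summed fibroblast and pericyte markers ran from 11261 to 25434 in the resistant tumours, against 7692 to 17036 in the untreated ones, and summed macrophage and myeloid markers from 684 to 2406, against 906 to 1036. Of the 12 fibroblast and pericyte markers tested 0 were called in this arm. COL1A1 made up most of their sum, with means of 15371 in the resistant and 10028 in the untreated tumours, while COL3A1 had 1098 and 603. The part of these cells in the IL6 and SOCS3 values was not tested.

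The sorafenib difference in A498 minus that in 786-O called OSMR alone among 8 members, where 5.19% of all genes were called and 2.17% as lower. For OSMR it was -0.76 ± 0.15 (limma adjusted p = 0.00478), and it remained under 0.05 when any 1 array was left out (adjusted p up to 0.0142). For IL6 it was 0.07 ± 0.40, with an interval from -0.74 to 0.89, and for SOCS3 -0.53 ± 0.40, with an interval from -1.34 to 0.29. For LIF it was -0.91 ± 0.29 (limma adjusted p = 0.0679) and for STAT3 -0.43 ± 0.17 (limma adjusted p = 0.141). Centring arrays on the median moved the median of all genes by -0.18 in this comparison and the share of calls that were higher to 21%, against 58.2% as deposited. LIF (-1.10) and STAT3 (-0.61) then passed as well, and OSMR stayed called. The median difference of the members was -0.34, against 0.07 for all genes.

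Untreated A498 tumours were compared with untreated 786-O tumours of the sunitinib arm, whose titles share a prefix. LIF, IL6ST and STAT3 were higher in A498 and IL6 was lower, so that 4 of 8 members were called, where 58.0% of all genes were, 27.3% as higher and 30.6% as lower. LIF had signals of 1964, 1877, 2526 and 1300 in A498, against 975, 1111, 1115, 780 and 704 in 786-O. The lines did not overlap, as was so for 47.4% of all genes. The difference of LIF was 1.01 ± 0.21 (limma adjusted p = 2.31e-04). IL6ST had signals of 7337, 8970, 7718 and 9081 in A498, against 6716, 6917, 5860, 5780 and 5023 in 786-O, also without overlap. The difference of IL6ST was 0.45 ± 0.11 (limma adjusted p = 9.43e-04), and 4 of its 5 probe sets above the filter were called higher in A498, by 0.45 to 1.39, in a fit where 52.9% of probe sets were called.

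STAT3 had signals of 5391, 4505, 3753 and 5648 in untreated A498 tumours, against 3681, 3911, 3564, 3996 and 3204 in untreated 786-O tumours. A498 replicate 3 lay within the 786-O range and the other A498 tumours above it. The difference of STAT3 was 0.38 ± 0.12 (limma adjusted p = 0.00987), 0.30 without A498 replicate 4 (limma adjusted p = 0.0546), and 3 of its 4 probe sets were called higher. IL6 had signals of 237, 359, 284 and 430 in A498, against 675, 478, 853, 569 and 425 in 786-O. The ranges met at 1 tumour of each line. The difference of IL6 was -0.83 ± 0.29 (limma adjusted p = 0.0154). It was -0.70 without A498 replicate 1 (limma adjusted p = 0.0622), -0.52 with the GAPDH difference as a covariate (limma adjusted p = 0.0931), and -0.37 against the 786-O tumours of the sorafenib arm (limma adjusted p = 0.276). SOCS3 gave -0.57 ± 0.29 (limma adjusted p = 0.0925) against the sunitinib arm and 0.41 against the sorafenib arm, neither called. The differences of IL11 (-0.08 ± 0.50), IL6R (0.23 ± 0.31) and OSMR (-0.04 ± 0.11) did not pass. The OSMR value is that of its brightest probe set. Another OSMR probe set was called lower in A498 (-0.55 ± 0.17, limma adjusted p = 0.0103), where 52.9% of probe sets were called. A further one gave 0.39 ± 0.23 and was not called, so that no direction is given for OSMR between the lines.

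Ordered by mean signal over the 6 groups, IL6 was highest in sorafenib-resistant 786-O tumours (992 ± 217, SD, n = 5) and sorafenib-resistant A498 tumours (907 ± 623, n = 5). It was followed by untreated 786-O of the sunitinib arm (600 ± 171, n = 5), sunitinib-resistant 786-O (558 ± 127, n = 4), untreated 786-O of the sorafenib arm (425 ± 92.5, n = 5) and untreated A498 (327 ± 84.5, n = 4). All neighbours in this order overlapped. OSMR was highest in sorafenib-resistant 786-O tumours (9464 ± 629, n = 5), above sunitinib-resistant 786-O (7945 ± 933, n = 4) without overlap, and the other 4 groups had overlapping means of 5896 to 6410. SOCS3 means ran from 1331 ± 271 in sorafenib-resistant 786-O (n = 5) to 513 ± 193 in untreated 786-O of the sorafenib arm (n = 5), with overlap between all neighbours. For the other members all neighbours in the order overlapped as well. LIF, IL6ST and STAT3 had their highest group means in untreated A498 and IL6R in sorafenib-resistant A498.

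Among the other ligands and receptors of the family, 10 of 12 genes had a probe set and 5 passed the filter. The ligands OSM, CTF1, CNTF and IL27 and the receptor IL31RA lay below it. Under sorafenib in 786-O 0 of 5 were called higher and 2 lower, EBI3, a cytokine subunit (-0.92 ± 0.24), and IL11RA, the IL-11 receptor chain (-0.43 ± 0.15). Among all genes 5.97% were called higher there and 9.18% lower. EBI3 passed the filter through A498 alone. Its signals in 786-O, 4.09 to 15.1 in resistant tumours and 4.17 to 60.2 in untreated ones, all lay under the filter's signal of 89.4, so its call there rests on a dim probe set. Under sunitinib 0 were called, where 5.06% of all genes were. In A498 under sorafenib LIFR, the LIF receptor, was called higher (0.69 ± 0.16), with signals of 291 to 441 in resistant tumours, against 183 to 234 in untreated ones. It was the 1 of 5 called there, where 6.34% of all genes were, 2.93% as higher. Between untreated lines LIFR was lower in A498 (-2.23 ± 0.16), while IL11RA (1.15 ± 0.15), IL27RA and EBI3 were higher. IL27RA lay at 410 to 459 in A498, against 32.3 to 101 in 786-O, and EBI3 at 199 to 349 in A498, against 4.06 to 11.6 in 786-O, where it is too dim for a fold.

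Of 12 genes of JAK and STAT signalling 11 were tested. In 786-O under sorafenib 1 was called higher, ADAM17, a protease that sheds membrane proteins such as the IL-6 receptor (0.30 ± 0.08), and 2 lower, the kinase JAK1 (-0.36 ± 0.10) and the protease ADAM10 (-0.34 ± 0.11). Among all genes 5.97% were called higher there and 9.18% lower. Under sunitinib 0 of 11 were called, where 5.06% of all genes were. In A498 under sorafenib JAK1 (-0.41 ± 0.10) and the adaptor GRB2 (-0.37 ± 0.11) were lower and 0 were higher, where 3.40% and 2.93% of all genes were. JAK1 lay at 7782 to 8773 in sorafenib-resistant 786-O tumours, against 9561 to 12387 in untreated ones, and at 3640 to 4959 in resistant A498 tumours, against 5261 to 6518 in untreated ones. Between untreated lines JAK1 was lower in A498 (-0.85 ± 0.10), while the adaptor GAB1 (1.13 ± 0.16), STAT5B (0.97 ± 0.12) and JAK2 (0.50 ± 0.16) were higher.

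Of 7 inhibitors of the pathway other than SOCS3, 2 were called lower in 786-O under sorafenib and 0 higher: SOCS2, an inhibitor best known from growth hormone signalling (-1.27 ± 0.24), and CISH (-0.61 ± 0.16), both of the same family as SOCS3. Among all genes 9.18% were called lower there and 5.97% higher. SOCS2 lay at 196 to 399 in resistant tumours, against 614 to 1044 in untreated ones. Under sunitinib in 786-O and under sorafenib in A498 0 of 7 were called, where 5.06% and 6.34% of all genes were. Between untreated lines SOCS2 was higher in A498 (0.71 ± 0.26), and PIAS3 (-0.57 ± 0.11), an inhibitor of STAT3, and the phosphatase PTPN2 (-0.49 ± 0.13) were lower.

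Genes known as STAT3 targets or acute phase genes numbered 28, of which 23 were tested. In 786-O under sorafenib 8 were called higher and 2 lower, where 5.97% and 9.18% of all genes were. Their median difference was 0.27, against -0.05 for all genes, for the 23 tested. The higher ones were led by SERPINA3, an acute phase protease inhibitor (1.87 ± 0.44), CCND1, which encodes cyclin D1 (0.99 ± 0.12), and ICAM1, an adhesion molecule (0.88 ± 0.14). Of the lower ones FGB, a fibrinogen chain (-1.07 ± 0.37), was dim in 786-O, with means of 23.5 in resistant tumours and 68.3 in untreated tumours. SERPINA3 lay at 525 to 1158 in resistant tumours, against 148 to 277 in untreated ones of the arm.

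Under sunitinib in 786-O 4 of 23 were called higher and 0 lower: BCL2L1, a survival gene (0.72 ± 0.16), ICAM1 (0.61 ± 0.15), CCND1 (0.54 ± 0.13) and VEGFA, an angiogenic factor (0.43 ± 0.11). Among all genes 2.22% were called higher there and 2.84% lower. In A498 under sorafenib 1 was called higher and 0 lower, where 2.93% and 3.40% of all genes were. It was HP, which encodes haptoglobin (2.28 ± 0.66), at 28.9 to 1035 in resistant tumours, against 9.80 to 137 in untreated ones, with overlap. The sorafenib difference in A498 minus that in 786-O was called for 3 of the 23, all lower: ICAM1 (-0.84 ± 0.20), CCND1 (-0.75 ± 0.17) and TIMP1, a metalloproteinase inhibitor (-0.50 ± 0.12). It was called for 5.19% of all genes, 2.17% as lower. Between untreated lines 11 were higher and 3 lower in A498, where 58.0% of all genes were called, 27.3% as higher and 30.6% as lower. The fibrinogen chain genes were among the higher ones, with FGB at 6727 to 18030 in A498, against 11.1 to 62.6 in 786-O, FGA at 2795 to 7154, against 8.49 to 78.7, and FGG at 195 to 1293, against 4.24 to 49.4. All 3 passed the filter through A498 and lay under its signal in these 786-O tumours, so no fold is given. The filter thus favoured their place among the 11, and the count is not like for like with the 27.3% in that respect. LBP, which binds bacterial lipopolysaccharide, was higher too (2.99 ± 0.67). Many other signals induce the genes of this list, so the counts describe the list and not the activity of STAT3.

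**Figure D4:**
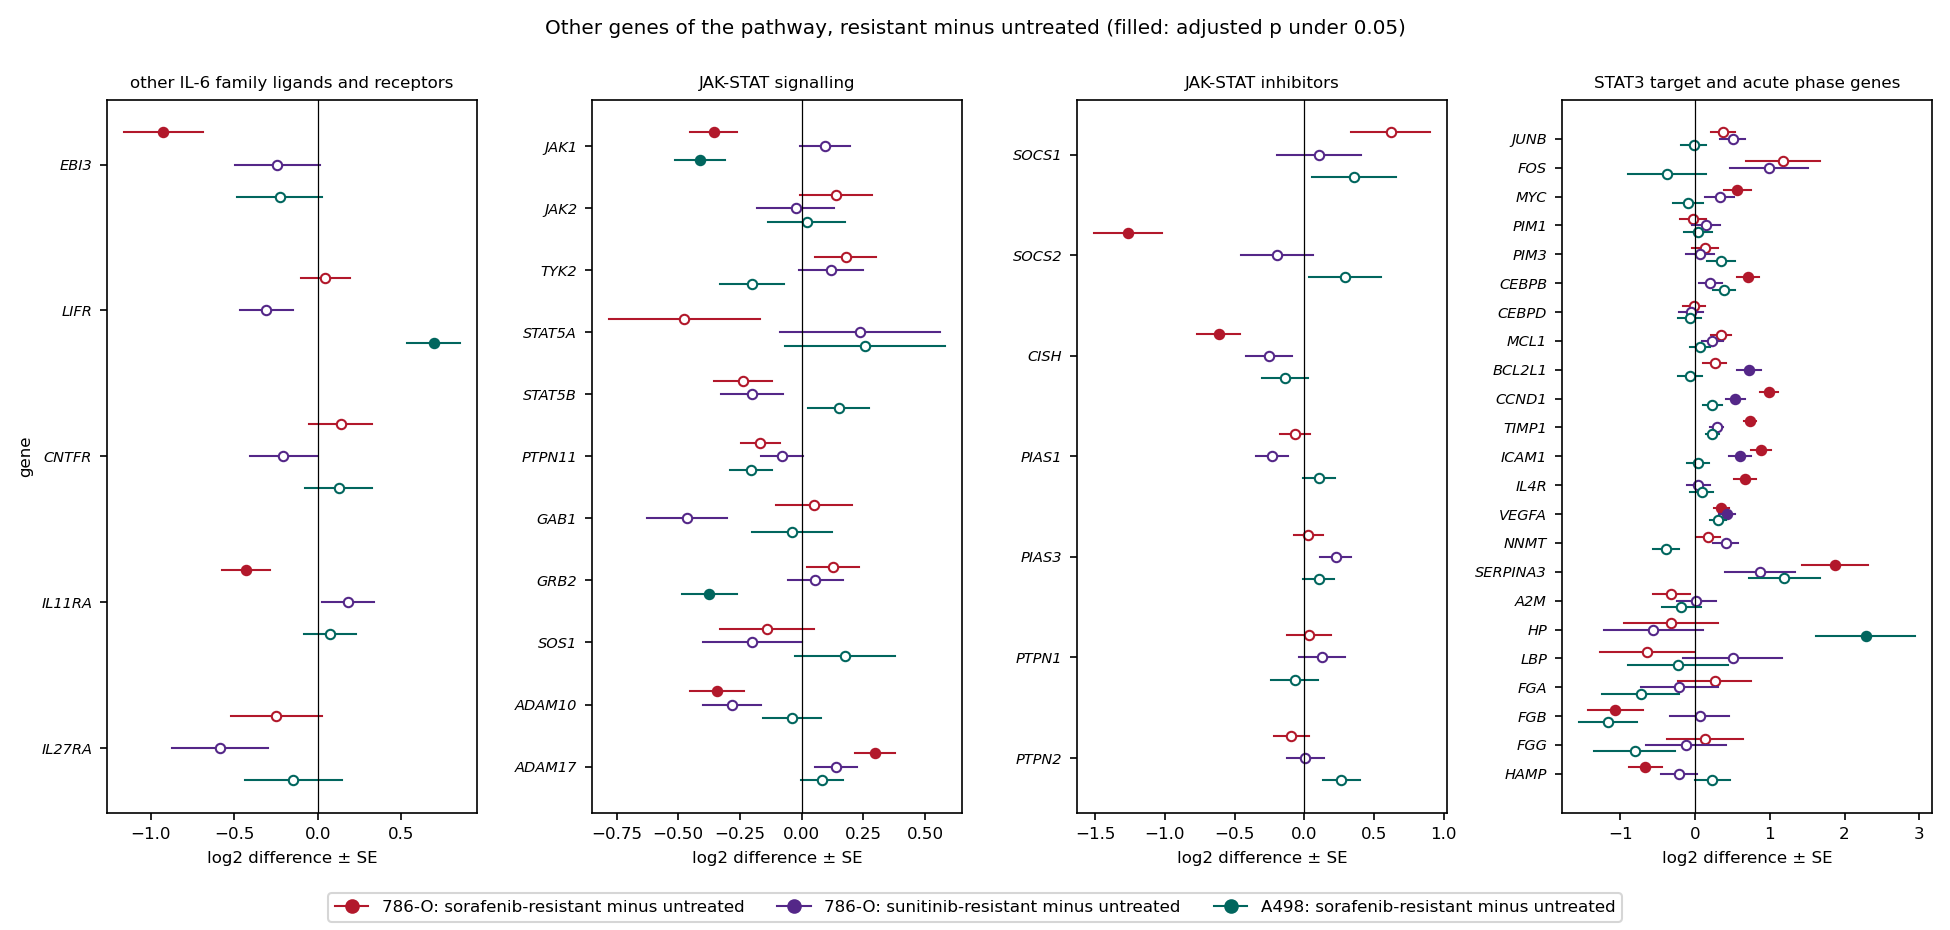
Difference in log2(signal + 16) ± SE, resistant minus untreated, of the genes of 4 lists that passed the filter, with 1 colour for each arm and filled points for an adjusted p under 0.05. Axes differ between panels. Filled points for 786-O under sorafenib lie on both sides of 0 among signalling genes, left of 0 among inhibitors, and mostly right of 0 among STAT3 targets.

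Over the 19 786-O arrays, which share groups, line and scaling, the genes whose log2 values ran most like those of a member were named as a description. For OSMR these were STC1, which encodes stanniocalcin 1 (r = 0.96), and the kinase gene STK10 (r = 0.95). For SOCS3 they were AHNAK (r = 0.90) and SDC4, which encodes syndecan 4 (r = 0.88). For IL6 they were MAFG, a small MAF factor (r = 0.85), and NRP2, which encodes neuropilin 2 (r = 0.84). For STAT3 they were SP1 (r = 0.89) and SBNO2 (r = 0.85), and for LIF SQLE, which encodes squalene epoxidase, and CYTH1 (r = 0.84 each). IL6R ran most like SGPP2 (r = 0.84) and CARINH (r = 0.79), IL6ST like ANXA13 (r = 0.80) and USP48 (r = 0.79), and IL11 like MAGEE1 (r = 0.75) and TRAF4 (r = 0.72).

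After removal of group means, pairs of members varied together to unequal degrees by line, in both directions and with no test. The 3 highest pairs over 9 A498 arrays were OSMR and SOCS3 (r = 0.94), IL6R and STAT3 (r = 0.91), and SOCS3 and STAT3 (r = 0.84). Over 19 786-O arrays the same pairs gave 0.13, 0.33 and 0.46, and the highest value of any pair was 0.50. Picking the highest pairs in A498 by itself favours lower values in 786-O. Over the A498 arrays OSMR, SOCS3, IL6R and STAT3 also ran with the GAPDH difference (r = 0.56, 0.54, 0.51 and 0.46). With the array median they gave r of 0.25, 0.36, 0.62 and 0.56. Other pairs were lower in A498: IL6 and LIF gave 0.31 in A498 and 0.50 in 786-O, LIF and SOCS3 0.12 and 0.33, LIF and STAT3 -0.29 and 0.10, and IL6ST and STAT3 0.42 and 0.50. LIF ran with the array median over the 786-O arrays (r = 0.72), a measure that all genes of an array share. IL6 and SOCS3 gave 0.44 in A498 and 0.34 in 786-O.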

How the data were processed

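RNA of 28 xenograft tumours had been hybridised to 1-colour Affymetrix HG-U133 Plus 2.0 arrays after Trizol extraction, per the labels' protocols. The deposited values are intensity values: linear probe set signals from 0.0875 to 64034.6 that the authors had scaled, as the equal 2% trimmed means (500.06 to 500.07) of the arrays show. RMA and MAS5 are both listed, per the submitters' processing notes, but neither a role nor a version is given for them. Detection calls were not used here. Of 54675 probe sets, 62 were controls, 41091 had 1 gene symbol, 1801 had several and 11721 none. Names were matched to RefSeq through the Entrez ID for 41037 probe sets and by symbol alone for 54.

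Groups came from the labels, and replicates were numbered by accession. Values were used as log2(signal + 16), a gene was represented by the brightest of its single-symbol probe sets, and 13808 of 19775 genes were tested, those that exceeded a signal of 89.4 (log2 6.72, the median over the whole table) in 4 arrays or more. In limma 3.58.1 (R 4.3.3; lmFit, eBayes) 1 linear model with 6 group means and no covariate took in the 28 arrays, so that the groups share 1 estimate of spread. Calls needed an adjusted p (Benjamini-Hochberg) under 0.05, and all probe sets were fitted the same way. Plots came from matplotlib 3.10.9 (Python 3.11.15).

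The members, the gene lists and the alternatives were chosen with earlier results of these data known. Named beside the members were up to 4 called genes of each pathway list and up to 2 of each marker list with the largest difference in a comparison, and the 2 genes most correlated with each member over the 19 786-O arrays. Alternatives were other pseudocounts, filters, probe set rules and scalings, the GAPDH difference as a covariate, array weights, fits limited to the groups compared, a trended robust variance, other untreated tumours as the comparison group, and leaving out arrays. On simulated data with 13808 genes, shifts of 1 were recovered in 76%, 82% and 68% of cases and shifts of 0.5 in 39%, 28% and 32%, for the sorafenib and sunitinib arms of 786-O and for A498, with 7, 9 and 5 false calls. Each simulation drew genes independently and shifted 100 by 0.5 and 100 by 1, fewer than were called in the data. These rates need not hold for the real tests.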

Additional observations from a re-analysis of the deposited data

Results flagged for a closer look

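Of 48 sets of 4 or 5 tumours (8 members in 6 groups), 2 held a tumour whose gap to the nearest other, divided by the range of the set on the log2 scale, passed Dixon's critical value at the 95% level, which chance passes in about 1 in 20 sets. IL6 was 2013 in sorafenib-resistant A498 replicate 2, against 519 to 745 in the other resistant A498 tumours. OSMR was 7765 in untreated 786-O replicate 5 of the sunitinib arm, against 5863 to 6186 in the others.

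The sorafenib difference in A498 minus that in 786-O was called for OSMR (-0.76), the 1 member of 8, and for 10 genes of the lists that are named here. SOCS2 gave 1.56, ICAM1 -0.84, CCND1 -0.75 and TIMP1, an inhibitor of metalloproteinases, -0.50. The stromal and myeloid markers gave 2.72 for COL3A1, 2.31 for COL1A2, 2.45 for TIE1, dim in untreated A498 and sorafenib-resistant 786-O tumours, and 3.34 for AIF1, and the renal carcinoma markers -0.74 for EPAS1, which encodes HIF-2alpha, and -0.64 for KRT8. The sorafenib minus the sunitinib difference in 786-O was called for COL1A1 (-2.29).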

How the results depend on the processing

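No paired analysis was possible because the labels number no replicates and the numbers used are those of the accession order. Of 48 member differences (8 members, 6 comparisons), 9 were called. Among these, 0 changed direction, and other settings kept the call in 111 of 117 cases and leaving out 1 array in 92 of 94. Calls were lost for SOCS3 in 786-O under sorafenib with the mean of probe sets (0.23) and the other untreated arm (0.44), for IL6 there with the other arm (0.73), for IL6 in A498 with only its arrays (1.27), and for IL6 between lines with GAPDH (-0.52) or the sorafenib arm (-0.37). The cause was not tested.

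Members called moved to 5 (786-O, sorafenib) with median centring and 1 with the other untreated arm. For sunitinib they were 2 with the other arm and 1 with both arms. In A498 they were 2 with a pseudocount of 64 or the stricter filter and 0 with only its arrays. For the difference between lines they were 3 with centring and 2 with the stricter filter, the trended robust variance or GAPDH. With centring 1195 of all genes were called higher and 727 lower for 786-O under sorafenib, and 190 and 713 between lines. Over the other settings, arrays left out aside, genes called ran from 1591 to 2606 (786-O, sorafenib), 185 to 1316 (A498) and 515 to 927 (between lines). Genes called were 259 (sunitinib) and 185 (A498) with only the arrays of the comparison, 1511 and 1400 for sunitinib with the other arm and both arms, 1316 for A498 with array weights, and 73 for the difference between drugs without a filter. With the 2 arrays of highest ACTB difference left out they were 1233 (786-O, sorafenib), 51 (between drugs) and 458 (between lines).

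Leaving out 1 array gave 3 to 4, 0 to 1 and 1 to 2 members called for 786-O sorafenib, sunitinib and A498, and 1 to 2 for the difference between lines. Genes called were then 1579 to 1931 for 786-O sorafenib, 313 to 659 for sunitinib and 467 to 1020 for A498. They were 506 to 746 between lines and 64 to 171 between drugs.

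Signs turned in 14 of 39 differences that were not called. With the mean of probe sets IL6ST became 0.16 (786-O, sorafenib), 0.050 (between drugs) and -0.43 (between lines), and SOCS3 0.38 (between lines). For the difference between lines, IL6 became -0.11, -0.17 and -0.065 and IL6ST -0.18, -0.084 and -0.0068 with centring, array weights and GAPDH, and IL6ST -0.024 with quantile normalisation. Under sunitinib IL6ST became -0.0035 with quantile normalisation, IL6 0.010 with GAPDH, 0.38 with the other arm and 0.15 with both arms, and IL6R 0.076 with the other arm. Between untreated lines OSMR became 0.0081 with GAPDH, 0.079 with the sorafenib arm and 0.022 with both arms, and SOCS3 0.41 with the sorafenib arm. Leaving out 1 array turned IL6 (-0.26 to 0.22) and IL6ST (-0.088 to 0.049) for the difference between lines, IL6 (-0.20 to 0.057), IL6R (-0.23 to 0.0047), IL6ST (-0.012 to 0.12) and SOCS3 (-0.017 to 0.28) under sunitinib, IL6R (-0.14 to 0.46) in A498, and IL11 (-0.39 to 0.30), IL6R (-0.0018 to 0.60) and OSMR (-0.078 to 0.035) between untreated lines. Dim probe sets, as those of IL11, limit what can be said of them.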
